A study of Mus musculus with 23 samples.

Results

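The response of cultured mouse astrocytes to T3 (triiodothyronine, the active thyroid hormone) was compared between 24 h and 6 h of exposure. For every gene the T3 effect at 6 h (T3 minus control) was subtracted from the T3 effect at 24 h on the log2 scale, so a positive difference is a higher T3 effect at 24 h. Of the 16087 genes tested, out of 38293 in the files, 135 were called, that is, the difference passed a Benjamini-Hochberg adjusted p under 0.05 in edgeR's quasi-likelihood F test (0.839% of the genes tested). The difference was positive in 87 of them (0.541%) and negative in 48 (0.298%). In 99 of the 135 genes the effect appeared late, in 11 it grew, in 18 it faded, in 2 it changed sign, and 5 were called at neither time on its own.

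T3 enters the nucleus and binds thyroid hormone receptors, which sit on DNA as partners of retinoid X receptors and switch from repressing to activating their target genes when the hormone is bound. Genes with such receptor sites can respond within hours, and genes that depend on newly made proteins respond later. Astrocytes are known for making most of the T3 that neurons receive, by converting the prohormone T4, and neurons inactivate T3.

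The cells were primary astrocytes from the neocortex of mice at postnatal day 3, of a mixed 129/OLa, 129/Sv, BALB/c and C57BL/6 background, with a stated astrocyte share above 95%. They grew for 7 days in medium with serum stripped of thyroid hormone, and all of them then spent 24 h in 0.1% of that serum before 10 nM T3 was added. The 15 libraries of the comparison were 6 h control (n = 4), 6 h T3 (n = 4), 24 h control (n = 4) and 24 h T3 (n = 3). A further 8 libraries received CHX at 8 µg/ml, with T3 for 6 h (n = 4) or without T3 (n = 4), and CHX is read here as cycloheximide, which blocks protein synthesis. The labels do not say how many animals or cultures stand behind a group, so the p-values cover only how these libraries vary, which may be technical variation.

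Libraries held 13843040 to 22997873 gene counts. Levels are given as CPM, the usual scale of a gene's share of all counts in a library, with TMM scaling between libraries, and they compare groups for 1 gene, not genes with each other. The file names carry a lane token: the 6 h libraries of the comparison were on lane 5 and those of 24 h on lane 6, except 24 h T3 replicate 3 on lane 7. Time and lane therefore cannot be told apart in a level, and a T3 effect compares libraries of the same time. The defining astrocyte markers were high in all 15 libraries, with Gfap at 3989 to 5627 CPM and Aqp4 at 483 to 1037 CPM. The defining markers of other cells differed. The endothelial gene Pecam1 stayed at or under 0.970 CPM and the myelin gene Mog at or under 0.205 CPM. The oligodendrocyte precursor gene Pdgfra ran from 55.1 to 165 CPM, Sox10 of the same lineage from 9.20 to 43.1 CPM and the myelin gene Mbp from 9.19 to 22.7 CPM. The highest values were 3.73 CPM for the endothelial gene Cdh5 and 11.5 CPM for the meningeal gene Dcn. They were 7.71 CPM for the microglia gene Cx3cr1 and 8.87 CPM for the neuron gene Gad1. In bulk RNA, fewer cells of a type and less RNA per cell cannot be told apart. The library 24 h T3 replicate 1 stood apart, with a limma voom weight of 0.118, against 0.483 to 3.04 in the others of the comparison. Its share of alignments not unique, 42.3%, was only just above the range of the others, 36.2% to 42.1%. The 24 h controls 2 and 4 had the highest summed microglia markers of the comparison (261 and 302 CPM, against 168 to 220 CPM in the others) and the highest oligodendrocyte lineage markers (1117 and 1197 CPM, against 835 to 1033 CPM). Without both of these controls 32 genes were called in place of 135, 31 of them among the 135, and without 24 h T3 replicate 1 the count was 109, of which 88 were among the 135. All 135 genes kept the sign of their difference in each of the 26 refits tried, and 28 of them stayed called in all 26. The refits reuse all or most of the libraries that chose these genes, so the kept signs are no separate support.

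The sequence of one pair of genes matters for reading the counts, since 50-base reads were counted only where they aligned to 1 place. Aldh1a1 and Aldh1a7, the genes with the largest late differences, are neighbours in opposite orientation on chromosome 19 and their longest transcripts share 151 identical 50-base words, 6.54% of the words of Aldh1a1 and 7.49% of those of Aldh1a7 (GENCODE M21, GRCm38). The longest shared stretch is coding sequence that spans 2 exons in each gene, at chr19:20629063-20630671 on the plus strand in Aldh1a1 and chr19:20708329-20709491 on the minus strand in Aldh1a7. Reads wholly inside this stretch of 100 bases could not have been counted to either gene, and the words that are not shared tell them apart:
Aldh1a1 and Aldh1a7 shared stretch: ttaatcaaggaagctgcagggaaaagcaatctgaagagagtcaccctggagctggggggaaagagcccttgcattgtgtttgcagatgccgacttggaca

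The letters of a thyroid hormone receptor half-site (AGGTCA on either strand) were searched from 250 bases before to 50 bases after each RefSeq start (GRCm38.p6). They were present for 20 of the 103 called genes with an entry (19.4%), against 14.7% of the 11448 tested genes with one, for 13 of 57 late genes with a higher T3 effect at 24 h, 3 of 21 late genes with a lower one, 1 of 8 growing genes and 3 of 13 fading genes. The direct repeat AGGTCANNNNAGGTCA was in none of the promoters of these 11448 genes, so its absence separates no genes. A match is a description of letters and not of binding. The 250 bases before the start of 2 genes that stayed called in all refits are shown with the matched letters in capitals, on GRCm38.p6 at chr11:54303574-54303823 (plus strand) for Acsl6, with 2 matches, and at chr4:138819258-138819507 (minus strand) for Pla2g5, with 1:
Acsl6: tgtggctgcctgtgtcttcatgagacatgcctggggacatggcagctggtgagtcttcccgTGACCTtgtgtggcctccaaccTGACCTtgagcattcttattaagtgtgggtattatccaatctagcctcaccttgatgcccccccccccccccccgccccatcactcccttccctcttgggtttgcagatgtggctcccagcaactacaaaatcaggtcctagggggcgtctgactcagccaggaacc
Pla2g5: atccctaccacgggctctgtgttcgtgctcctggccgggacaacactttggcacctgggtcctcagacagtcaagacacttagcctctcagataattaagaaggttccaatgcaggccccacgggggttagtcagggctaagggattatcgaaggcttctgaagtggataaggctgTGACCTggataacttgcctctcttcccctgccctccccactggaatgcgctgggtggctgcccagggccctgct

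**Figure D1:**
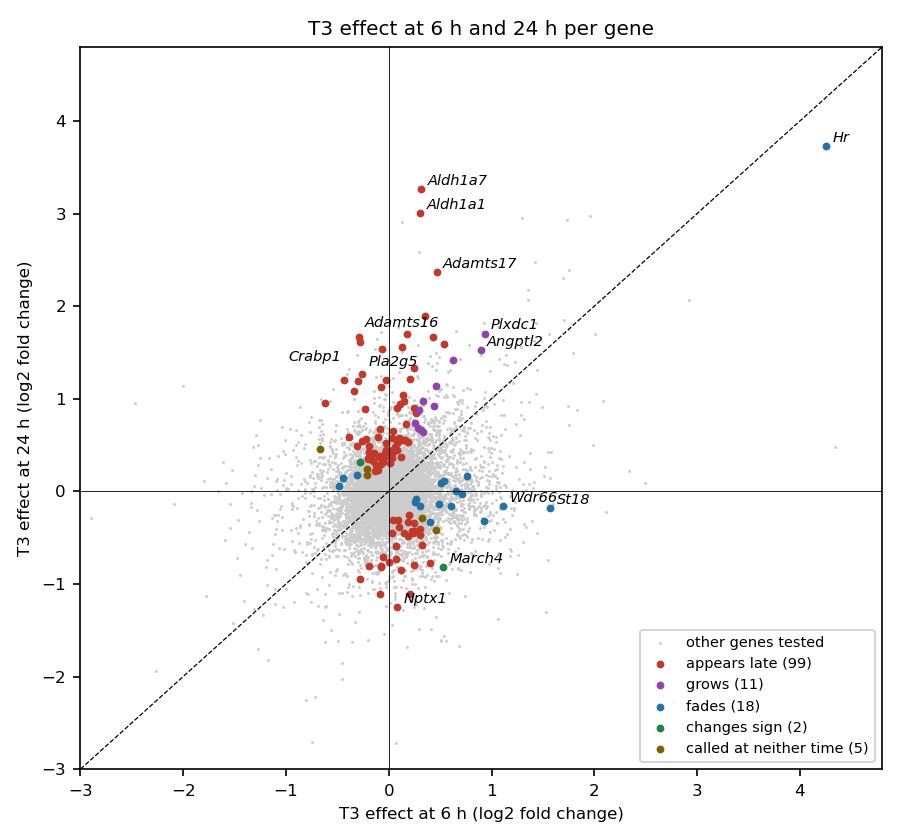
T3 effect at 6 h (x axis) and at 24 h (y axis) of each gene tested, as log2 fold changes, with the called genes coloured by pattern and the dashed line marking equal effects. The late genes lie along the vertical axis, Hr lies far out near the line, and 6 genes lie outside the plotted range of −3 to 4.8.

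The largest group, 99 genes, was called for T3 at 24 h and not at 6 h. For background, 7.09% of all genes were called for T3 at 24 h (4.41% higher, 2.68% lower) and 3.77% at 6 h (2.61% higher, 1.16% lower). The T3 effect at 24 h was positive in 69 of the late genes, with a median of 0.57 log2 at 24 h and −0.03 at 6 h. It was negative in 30, with a median of −0.53 log2 at 24 h and 0.13 at 6 h. The 24 h T3 libraries did not overlap the 24 h controls in 68 of the 69 genes and in all 30, where 15.1% of all genes did not overlap, but the call at 24 h had chosen these genes and nothing is read from these counts. At 6 h, 12 of the 69 and 7 of the 30 did not overlap, where 11.5% of all genes did not.

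Aldh1a7 and Aldh1a1 had the largest late rise. Aldh1a1 (ENSMUSG00000053279, chromosome 19, 20492715 to 20643465, plus strand) encodes a retinaldehyde dehydrogenase, an enzyme that makes retinoic acid. Its level was 7.92, 6.86, 6.92 and 5.15 CPM in the 6 h controls and 7.23, 9.81, 8.74 and 7.72 CPM in the 6 h T3 libraries. At 24 h it was 7.17, 4.43, 7.71 and 5.14 CPM in the controls and 52.4, 46.9 and 48.3 CPM with T3. The 3 libraries with 24 h of T3 stood far above the other 12, and the 6 h groups overlapped. The T3 effect was 0.31 ± 0.16 log2 at 6 h and 3.01 ± 0.15 at 24 h, a difference of 2.70 ± 0.22 (adjusted p = 5.67e-08). Its neighbour Aldh1a7, a close relative of the same enzyme, was at 2.78, 2.68, 3.43 and 2.27 CPM in the 6 h controls and 3.18, 3.41, 3.37 and 4.07 CPM with 6 h of T3. It was at 2.01, 2.97, 2.50 and 1.43 CPM in the 24 h controls and 22.9, 20.8 and 21.2 CPM with 24 h of T3. Again only the last group stood apart, with a difference of 2.95 ± 0.24 log2 (adjusted p = 5.67e-08). Crabp1, which binds retinoic acid in the cytoplasm, was at 4.73 ± 1.08 CPM in 6 h controls, 3.87 ± 0.961 with 6 h of T3, 3.33 ± 0.727 in 24 h controls (each SD, n = 4) and 10.3 ± 1.67 with 24 h of T3 (SD, n = 3). Its T3 effect differed by 1.90 ± 0.27 log2 between the times (adjusted p = 0.000727). These 3 were the only called members among 19 tested genes of retinoid metabolism and signalling, of which 9 had a positive difference, with a median of −0.03 log2 against −0.01 over all genes (0.541% of all genes were called higher). All 3 stayed called in all 26 refits. DESeq2 called 4 of the 19 and limma voom 5, where these tools called 356 and 840 of all 16087 genes.

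Secreted proteases were among the genes that rose late. Adamts16 and Adamts17 encode metalloproteases of the ADAMTS family, which cut matrix proteins. Adamts16 was at 0.619, 0.835, 0.582 and 0.606 CPM in the 6 h controls and 0.769, 0.542, 0.413 and 0.417 CPM with 6 h of T3, so it was low at that time. It was at 1.51, 1.30, 1.12 and 1.48 CPM in the 24 h controls and 3.46, 4.77 and 4.55 CPM with 24 h of T3, above every other library of the comparison (difference 1.96 ± 0.36 log2, adjusted p = 0.0081). Adamts17 was at 9.80 ± 2.60 CPM (SD, n = 4) in the 24 h controls and 50.6 ± 9.64 CPM (SD, n = 3) with T3, and at 2.30 and 3.18 CPM at 6 h (difference 1.90 ± 0.29 log2, adjusted p = 0.00196). They were the only 2 of 22 tested ADAMTS genes called in edgeR's test, with a median of −0.06 log2 for the family. Of all genes 0.541% were called higher. DESeq2 called 3 of the 22 and limma voom 2. For T3 at 24 h on its own 5 of the 22 were called higher and 2 lower, against 4.41% and 2.68% of all genes. Of 41 matrix genes 4 were called in edgeR's test, 2 in each direction, with a median of −0.13 log2. Over all genes 0.839% were called in that test. DESeq2 called 5 of the 41 and limma voom 8, against 356 and 840 of all 16087 genes. The crosslinking enzyme Loxl2 and the matrix metalloprotease Mmp2 had higher T3 effects at 24 h, by 0.64 ± 0.12 and 0.47 ± 0.11 log2. The basement membrane genes Nid1 (nidogen) and Lama4 (a laminin chain) had lower ones, with differences of −0.77 ± 0.15 and −0.74 ± 0.18 log2, and the Lama4 difference was −0.48 without 24 h controls 2 and 4. The call was lost in 1 of the 26 refits for Loxl2 and Nid1, in 11 for Mmp2 and in 14 for Lama4. Of the 50-base words of Loxl2 45.8% also occur in other annotated genes, most of them in Gm21451, so its counts are uncertain.

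Several other genes of signalling and metabolism rose late. Pla2g5, a secreted phospholipase, was at 7.78 ± 0.855 CPM (SD, n = 4) in 24 h controls and 18.8 ± 1.03 CPM (SD, n = 3) with T3, with a T3 effect of −0.26 ± 0.12 log2 at 6 h and 1.27 ± 0.11 at 24 h (difference 1.53 ± 0.16, adjusted p = 5.29e-06). The serine protease gene Htra1 was at 194 and 190.4 CPM at 6 h without and with T3. At 24 h it was at 161 CPM in the controls and 371 CPM with T3 (difference 1.23 ± 0.15 log2, adjusted p = 9.03e-05). Its 24 h control mean was the lowest of the 4 groups. Controls 2 and 4 were at 141 and 140 CPM, and controls 1 and 3 at 178 and 187 CPM. Rgs6, a regulator of G-protein signalling, rose from 7.00 to 20.6 CPM at 24 h, with 6.48 and 7.09 CPM at 6 h (difference 1.43 ± 0.19 log2, adjusted p = 0.000257). Wnt4, a secreted Wnt ligand, was the 1 called member among 36 Wnt pathway genes, with a difference of 1.42 ± 0.24 log2 (adjusted p = 0.00386). Acsbg1, an acyl-CoA synthetase enriched in astrocytes, was the 1 called of 24 astrocyte markers, at 361 ± 7.33 CPM in 24 h controls (SD, n = 4) and 529 ± 27.2 CPM with T3 (SD, n = 3). Pla2g5, Htra1, Rgs6, Wnt4 and Acsbg1 stayed called in all 26 refits. Of the 36 Wnt genes DESeq2 called 2 and limma voom 5, and of the 24 astrocyte markers 1 and 7. Over all 16087 genes these tools called 356 and 840, and edgeR's test called 0.541% higher. Further late genes called in all refits were Kdelr3, a receptor that returns proteins to the endoplasmic reticulum (0.82 ± 0.14 log2), Nt5e, an enzyme that makes adenosine (1.01 ± 0.18), Scpep1, a carboxypeptidase (0.61 ± 0.11), and Sept4, a septin (0.90 ± 0.14). Other late genes were less stable: Cox7a1, a subunit of cytochrome oxidase (difference 1.53 ± 0.29 log2), lost its call in 1 refit, and Flywch2, a gene known to respond to thyroid hormone (1.60 ± 0.39), in 17. Pcp4, a calmodulin-binding protein gene, and Tmem45a had differences of 1.64 ± 0.39 and 1.57 ± 0.38 log2 at low levels, with 24 h T3 means of 3.82 and 1.17 CPM, and the calls were lost in 14 and 19 refits. Without 24 h controls 2 and 4 the T3 effect of Pcp4 at 24 h was 0.68 log2, where it was 1.21 with them.

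Levels in the controls also differed between the times for many of these genes, and the 69 late genes with a higher T3 effect reached their 24 h level from different starting points. In 60 of them the 24 h T3 mean was the highest of the 4 groups. In the other 9 both 24 h means were below the 6 h control mean, and the T3 libraries were higher than controls that were themselves lower. Thy1, a membrane glycoprotein gene, is one: it was at 109 and 91.3 CPM in the 6 h control and T3 groups, 48.8 CPM in 24 h controls and 71.3 CPM with 24 h of T3. Islr and Rab31, a small GTPase gene, had the same order of groups, with 182, 158, 105 and 134 CPM for Islr and 1846, 1776, 1227 and 1532 CPM for Rab31. Thy1, Islr and Rab31 were picked as examples after their values were seen. Without 24 h controls 2 and 4 their T3 effects at 24 h were lower for Thy1 (0.36 log2 against 0.54) and Rab31 (0.21 against 0.32). Whether the change of the controls between 6 h and 24 h is one of time or of lane was not tested.

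**Figure D2:**
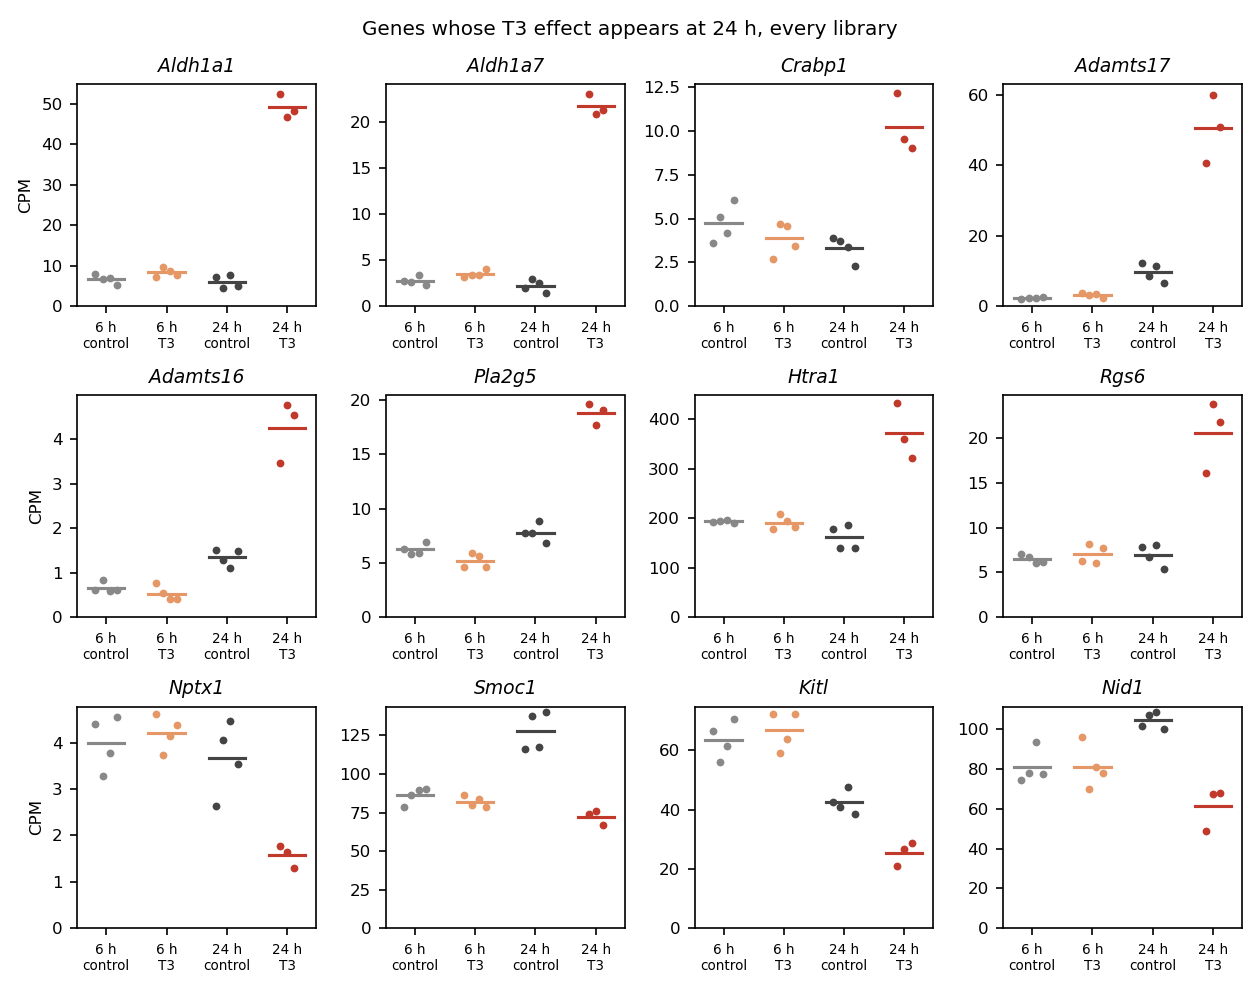
CPM of 12 late genes in each of the 15 libraries (points) with the group mean (line), on axes that start at 0. In the first 8 panels the 24 h T3 points lie above all other groups, and in the last 4 they lie below.

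The 30 late genes with a lower T3 effect at 24 h were led by Nptx1, Stk32b and Serping1. Nptx1, a secreted pentraxin of synapses, was at 4.39, 3.28, 3.78 and 4.54 CPM in the 6 h controls and 4.61, 3.74, 4.13 and 4.38 CPM with 6 h of T3. It was at 2.64, 4.05, 4.47 and 3.54 CPM in the 24 h controls and 1.76, 1.64 and 1.31 CPM with 24 h of T3, which put the 3 last libraries below the other 12 (difference −1.33 ± 0.24 log2, adjusted p = 0.00736). The kinase gene Stk32b was at 2.08, 2.86, 2.34 and 2.97 CPM in 24 h controls and 1.20, 1.13 and 1.22 CPM with T3. At 6 h it was higher in both groups, at 4.01 to 4.70 CPM and 4.17 to 5.90 CPM (difference −1.32 ± 0.31 log2, adjusted p = 0.0403). Serping1, the complement C1 inhibitor, was at 14, 27.1, 14 and 27.4 CPM in the 24 h controls and 13.1, 11.0 and 12.1 CPM with T3. The 24 h controls split into a pair near 14 CPM and a pair near 27 CPM, and the high pair are controls 2 and 4, which also had the highest summed microglia and oligodendrocyte lineage markers. At 6 h Serping1 was at 17.5, 16.0, 17.4 and 19.2 CPM in the controls and 24.2, 23.3, 22.1 and 23 CPM with T3 (difference −1.18 ± 0.29 log2, adjusted p = 0.0487). Without controls 2 and 4 its T3 effect at 24 h was −0.23 log2 (adjusted p = 0.614), where it was −0.78 with them, and its difference was −0.63. In all, the call was lost in 16 of 26 refits and in 13 for Stk32b.

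Smoc1, a secreted matricellular protein gene, was at 128 ± 12.7 CPM (SD, n = 4) in 24 h controls and 72.4 ± 4.64 CPM (SD, n = 3) with T3, and at 86.4 and 82.2 CPM in the 6 h groups (difference −0.75 ± 0.10 log2, adjusted p = 0.000257). Its 24 h T3 libraries were the lowest of the comparison, and its 24 h control mean was the highest of the 4 groups. Kitl, the ligand of the receptor Kit, was at 63.6 and 66.8 CPM at 6 h, 42.4 CPM in 24 h controls and 25.5 CPM with 24 h of T3 (difference −0.80 ± 0.15 log2, adjusted p = 0.0081). Flnc (filamin C), Papss2 (a sulfate donor enzyme) and Gm45837 also had lower T3 effects at 24 h and, with Nptx1, Smoc1 and Kitl, stayed called in all 26 refits. Of the words of Gm45837 98.1% occur in another annotated gene, so its counts are uncertain. Ptx3, another pentraxin and a gene of reactive astrocytes, was at 110.2 and 136 CPM at 6 h and at 30.0 and 22.7 CPM at 24 h, so the level at 24 h was far lower in both groups. Its T3 effect was 0.30 ± 0.09 log2 at 6 h (adjusted p = 0.0507) and −0.41 ± 0.11 at 24 h (adjusted p = 0.0179), with a difference of −0.71 ± 0.14 (adjusted p = 0.0109). Galnt15, an enzyme of mucin-type glycosylation, was at 20.7 and 24.5 CPM at 6 h and 9.21 and 5.24 CPM at 24 h (difference −1.04 ± 0.21 log2, adjusted p = 0.013). Fam129a and Tmem132c had differences of −0.96 ± 0.23 and −0.90 ± 0.18 log2, and both were higher at 24 h than at 6 h also with T3, with 24 h T3 means of 6.31 and 9.85 CPM against 6 h control means of 3.28 and 3.83 CPM. The calls were lost in 15 refits for Fam129a and in 2 for Tmem132c. The adhesion molecule gene Vcam1 and the caveola gene Cav1 had differences of −0.49 ± 0.09 and −0.59 ± 0.12 log2. In 24 of the 30 genes the estimate at 6 h had the opposite sign to that at 24 h, and in 37 of the 69 with a higher effect. A call of the difference favours opposite signs, and late genes are by definition not called at 6 h, so nothing is read from these counts.

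In 11 genes T3 raised the level at both times and more so at 24 h, and no called gene was lowered at both times and more at 24 h. The median T3 effect of the 11 was 0.33 log2 at 6 h and 0.93 at 24 h. Slc25a33, a mitochondrial carrier of pyrimidine nucleotides, was at 22.5, 22.2, 21.5 and 23.7 CPM in the 6 h controls and 31.8, 36.0, 36.4 and 34.0 CPM with 6 h of T3. It was at 14.8, 14.4, 15.5 and 14.2 CPM in the 24 h controls and 50.0, 33.7 and 34.6 CPM with 24 h of T3. No groups overlapped at either time, and 24 h T3 replicate 1 was above its 2 companions (difference 0.79 ± 0.13 log2, adjusted p = 0.00386; 0.59 without that library). Plxdc1, a membrane protein gene known from tumour endothelium, was at 3.03, 2.39, 2.62 and 3.03 CPM and 4.77, 5.64, 4.90 and 5.74 CPM at 6 h without and with T3. At 24 h it was at 5.28, 6.48, 5.80 and 5.82 CPM and 19.8, 19.4 and 18.1 CPM, so the step grew although the controls were higher too (difference 0.77 ± 0.16 log2, adjusted p = 0.0185). Srd5a1, the steroid 5-alpha reductase, was at 11.0, 9.01, 9.60 and 8.79 CPM and 10.7, 12.8, 15.6 and 13.7 CPM at 6 h, where T3 replicate 1 lay among the controls. At 24 h it was at 8.80, 6.97, 7.92 and 9.48 CPM and 19.4, 18.6 and 16.9 CPM (difference 0.68 ± 0.16 log2, adjusted p = 0.0429). The call was lost in 4 of 26 refits for Plxdc1, which were those without 6 h control 1, without 6 h T3 replicate 1, without 24 h controls 2 and 4, and with a replicate block, and in 15 for Srd5a1.

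Acsl6, an acyl-CoA synthetase of brain, and Cdc42ep4, a binding partner of the GTPase Cdc42 found in astrocytes, grew by 0.58 ± 0.10 and 0.48 ± 0.07 log2 and, with Slc25a33, stayed called in all 26 refits. Acsl6 was at 44.6 ± 2.16 CPM and 54.6 ± 2.44 CPM (SD, n = 4) at 6 h, 57.9 ± 3.64 CPM in 24 h controls (SD, n = 4) and 106 ± 2.12 CPM with 24 h of T3 (SD, n = 3). Angptl2, a secreted angiopoietin-like protein gene, rose from 57.3 to 107 CPM at 6 h and from 44.2 to 127 CPM at 24 h (difference 0.63 ± 0.14 log2, adjusted p = 0.0354, and 0.41 without 24 h controls 2 and 4). Itga7 (integrin alpha 7) and Elovl5 (a fatty acid elongase) had lower levels in both 24 h groups than in the matching 6 h groups. For Itga7 the means were 99.0 and 123 CPM at 6 h and 55.8 and 88.7 CPM at 24 h, and its adjusted p of 0.0496 lay just inside the threshold, with the call lost in 19 refits. The other growing genes were Loxl2, Daam2, a formin of Wnt signalling, and Tspan9, a tetraspanin.

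The T3 effect faded in 18 genes, of which 15 were raised by T3 at 6 h and 3 were lowered. An effect not called at 24 h counts as faded whatever its sign there. The estimate at 24 h had the opposite sign in 10 of the 15 and in all 3, which a call of the difference favours. Among the 15 the median T3 effect was 0.60 log2 at 6 h and −0.11 at 24 h. The 6 h groups did not overlap in any of the 18, which the call at 6 h had chosen. Hr, which encodes a corepressor of the thyroid hormone receptor and is a direct target of it, was the only one still called at 24 h. It was at 9.34, 10.0, 11.5 and 12.2 CPM in the 6 h controls and 226, 193, 204 and 197 CPM with 6 h of T3. It was at 18.8, 18.1, 16.8 and 16.7 CPM in the 24 h controls and 219, 247 and 232 CPM with 24 h of T3. The ranges with T3 overlapped between the times, all 24 h controls were above all 6 h controls, and the T3 effect went from 4.26 ± 0.08 log2 to 3.73 ± 0.08 (difference −0.53 ± 0.11, adjusted p = 0.0159). The call was lost without the 8 CHX libraries, without 6 h control 1, without 6 h control 2, and without 24 h controls 2 and 4. Klf9, a zinc-finger gene that also responds directly to T3, had a difference of −0.29 ± 0.12 log2 that did not pass (adjusted p = 0.259), with 23 and 79.6 CPM at 6 h and 20.4 and 57.6 CPM at 24 h.

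Genes that faded did so from different levels. In 8 of the 15 raised genes the 24 h control mean was above the 6 h T3 mean, so the controls had passed the level that T3 gave at 6 h. Slc43a2, an amino acid transporter, is one of these, at 32.5 ± 4.13 CPM in 6 h controls, 53.2 ± 6.01 with 6 h of T3, 81.6 ± 6.32 in 24 h controls (each SD, n = 4) and 79.7 ± 7.91 with 24 h of T3 (SD, n = 3), and it stayed called in all 26 refits (difference −0.74 ± 0.13 log2, adjusted p = 0.00413). Dpp6, a partner subunit of potassium channels, also stayed called in all 26 refits (difference −0.73 ± 0.15 log2, adjusted p = 0.0145). It was at 10.8 and 14.2 CPM at 6 h and 25.5 and 20.3 CPM at 24 h. At 24 h every T3 library of Dpp6 was below every control, though its T3 effect was not called there. Klf10, an early-response zinc-finger gene, was at 32.2 and 45.8 CPM at 6 h and 50.6 and 53.7 CPM at 24 h (difference −0.42 ± 0.08 log2, adjusted p = 0.013). Among 35 immediate early genes, with a median difference of −0.17 log2, Klf10 was the 1 called in edgeR's test. Of all genes 0.298% were called lower there. DESeq2 called 1 of the 35 and limma voom 2, against 356 and 840 of all 16087 genes. In the opposite case, both 24 h means of Vegfa, the endothelial growth factor gene, and Met, the receptor of hepatocyte growth factor, were below their 6 h control means. Vegfa was at 85.6 and 145 CPM at 6 h and 38.5 and 43.2 CPM at 24 h (difference −0.59 ± 0.14 log2, adjusted p = 0.048, lost in 18 of 26 refits). Met was at 148 and 208 CPM at 6 h and 36.7 and 33.1 CPM at 24 h (difference −0.63 ± 0.13 log2, adjusted p = 0.0188, lost in 5).

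The fading genes with the largest differences were St18, Wdr66 and Armh1. St18, a zinc-finger gene related to Myt1, was at 1.05, 1.25, 1.05 and 1.06 CPM in the 6 h controls and 4.0, 2.28, 3.01 and 3.86 CPM with 6 h of T3. It was at 1.45, 2.54, 1.65 and 3.42 CPM in the 24 h controls and 1.64, 1.85 and 2.44 CPM with 24 h of T3, where the groups overlapped (difference −1.75 ± 0.42 log2, adjusted p = 0.048, lost in 15 refits). Controls 2 and 4 were the highest 24 h controls, and without them the T3 effect of St18 at 24 h went from −0.18 to 0.36 log2, neither called, and the difference was −1.21. Wdr66, a WD-repeat gene of ciliated cells, was at 10.5, 8.65, 8.20 and 11.7 CPM and 18.8, 19.2, 22.2 and 23.6 CPM at 6 h without and with T3. At 24 h it was at 22.4, 29.1, 21.2 and 36.1 CPM and 22.6, 24.2 and 26.3 CPM, with controls 2 and 4 the highest of all libraries (difference −1.27 ± 0.25 log2, adjusted p = 0.011, and −0.95 with the call lost without these 2 controls). Armh1 was at 2.47, 2.15, 1.69 and 2.12 CPM and 3.64, 3.74, 4.19 and 4.43 CPM at 6 h and at 5.97, 5.35, 6.17 and 7.48 CPM and 4.66, 4.98 and 5.35 CPM at 24 h. Its order of groups was that of Wdr66, and its call was lost in 3 refits (difference −1.24 ± 0.26 log2, adjusted p = 0.019). Motile cilia genes as a list moved the same way: 38 of 40 had a negative difference with a median of −0.69 log2, and the T3 medians were 0.63 log2 at 6 h and −0.08 at 24 h. Of these 40 only Ccdc40, an assembly factor of cilia dynein arms, was called (−0.77 ± 0.17 log2, adjusted p = 0.0323), which is 1 gene beside the 0.298% of all genes called lower. In the same list 19 genes had an unadjusted p under 0.05 in edgeR's test, DESeq2 called 3 and limma voom called 12. Over all 16087 genes tested these counts were 2510, 356 and 840, and 7865 of these genes had a positive difference. Without 24 h controls 2 and 4 the median difference of the cilia list was −0.38 log2, and no member was then called. Its median T3 effect at 24 h was then 0.18 log2, where it was −0.08 with them. Cilia genes belong to ependymal cells, and what part such cells have in these values was not tested.

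Slc29a1, Ptp4a3 and Fastk were lowered by T3 at 6 h and not called at 24 h. Slc29a1, an equilibrative nucleoside transporter, was at 20.3, 20.6, 18.8 and 18.4 CPM in the 6 h controls and 15.1, 15.2, 13.7 and 13.2 CPM with 6 h of T3. It was at 18.0, 17.7, 19.8 and 18.5 CPM in the 24 h controls and 22.9, 20.1 and 18.8 CPM with 24 h of T3, where the groups overlapped (difference 0.60 ± 0.12 log2, adjusted p = 0.0142). The phosphatase gene Ptp4a3 was at 56.0, 61.3, 62.4 and 56.5 CPM and 43.8, 46.6, 39.9 and 38.2 CPM at 6 h. At 24 h it was at 49.1, 47.8, 53.3 and 50.5 CPM and 61.9, 48.6 and 46.9 CPM, with T3 replicate 1 above all other 24 h libraries (difference 0.55 ± 0.13 log2, adjusted p = 0.0369, lost in 12 refits). Fastk was at 49.4, 46.0, 51.6 and 49.0 CPM and 41.5, 40.4, 40.3 and 36.3 CPM at 6 h and at 51.8, 50.8, 40.4 and 45.4 CPM and 59.3, 53.0 and 47.8 CPM at 24 h (difference 0.48 ± 0.11 log2, adjusted p = 0.0409, lost in 13 refits). It shares 28.5% of its words with Slc4a2 on the other strand, and the kit marked no strand, so its counts are uncertain.

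**Figure D3:**
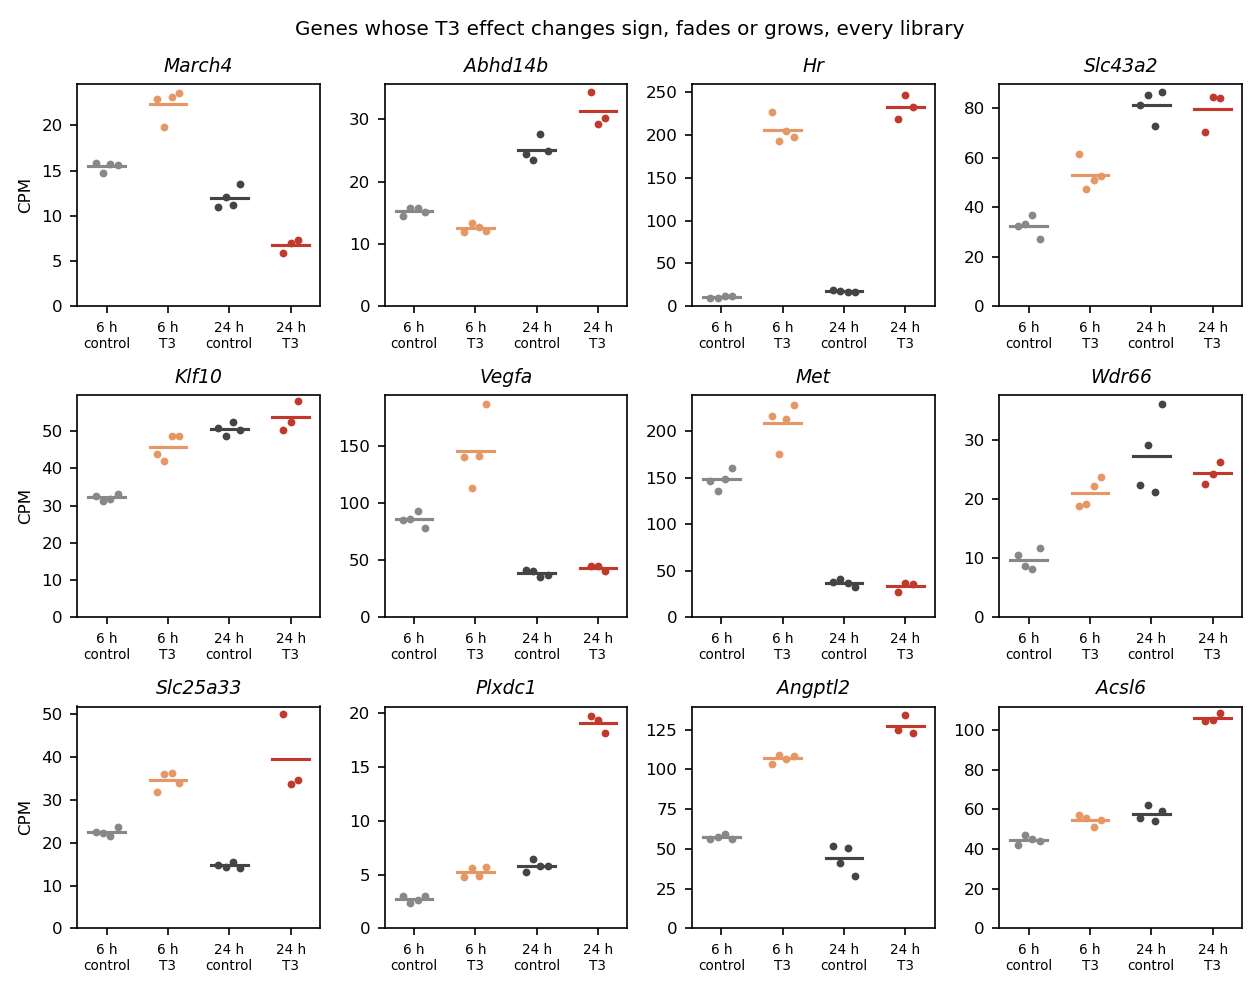
CPM of 12 genes whose T3 effect changed sign, faded or grew, in each of the 15 libraries (points) with the group mean (line), on axes that start at 0. March4 is raised by T3 at 6 h and lowered at 24 h, Slc43a2, Vegfa and Met differ by T3 at 6 h only, and the T3 steps of the last row are larger at 24 h.

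Only 2 genes were called at both times with opposite signs. March4, which encodes a membrane-bound ubiquitin ligase, was at 15.8, 14.8, 15.8 and 15.6 CPM in the 6 h controls and 22.9, 19.8, 23.1 and 23.6 CPM with 6 h of T3. It was at 11.0, 12.1, 11.2 and 13.5 CPM in the 24 h controls and 5.86, 7.03 and 7.33 CPM with 24 h of T3. The groups did not overlap at either time, with T3 above the controls at 6 h and below them at 24 h. The T3 effect was 0.53 ± 0.11 log2 at 6 h (adjusted p = 0.00676) and −0.82 ± 0.14 at 24 h (adjusted p = 0.000283), a difference of −1.34 ± 0.18 (adjusted p = 0.000257) that stayed called in all 26 refits. Abhd14b, a small hydrolase gene, went the other way and by less. It was at 14.5, 15.7, 15.7 and 15.1 CPM in the 6 h controls and 12.0, 13.4, 12.7 and 12.1 CPM with 6 h of T3. It was at 24.4, 23.5, 27.7 and 24.9 CPM in the 24 h controls and 34.5, 29.3 and 30.2 CPM with 24 h of T3. The T3 effect was −0.28 ± 0.08 log2 at 6 h (adjusted p = 0.0467) and 0.32 ± 0.08 at 24 h (adjusted p = 0.0117), a difference of 0.60 ± 0.11 (adjusted p = 0.0081). The T3 effect of Abhd14b at 24 h was 0.25 (adjusted p = 0.192) without 24 h controls 2 and 4. It was 0.24 (adjusted p = 0.0773) with 24 h T3 replicate 1 and CHX replicate 4 left out. The call at 24 h was lost in both refits, and what part the smaller number of libraries had in this was not tested. Abhd14a overlaps Abhd14b on the other strand and 26.8% of the words of Abhd14b occur in another annotated gene, so its counts are uncertain.

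A further 5 genes passed the test of the difference without passing at either time. In all 5 the 2 estimates had opposite signs, which a call of the difference favours. Minar2 was at 4.45, 3.46, 3.38 and 2.35 CPM and 2.41, 2.44, 2.30 and 1.51 CPM at 6 h without and with T3, and at 6.41, 6.27, 9.68 and 6.74 CPM and 11.6, 9.54 and 9.09 CPM at 24 h (difference 1.13 ± 0.26 log2). The calcium-binding gene Casq1 was at 117, 117, 114 and 116 CPM and 97.7, 104, 104 and 94.0 CPM at 6 h, and at 85.2, 78.1, 93.4 and 73.9 CPM and 106, 95.2 and 92.9 CPM at 24 h (difference 0.46 ± 0.11 log2). Plscr2, a scramblase gene, was at 32.8, 32.0, 28.3 and 34.5 CPM and 26.4, 29.2, 26.8 and 27.5 CPM at 6 h, and at 38.1, 40.3, 39.0 and 40.3 CPM and 44.3, 43.8 and 45.4 CPM at 24 h (difference 0.39 ± 0.09 log2). In these 3 genes T3 was on the lower side at 6 h and on the higher side at 24 h. Kndc1 was at 7.42, 7.81, 9.08 and 9.01 CPM and 12.5, 9.21, 11.6 and 12.4 CPM at 6 h, and at 38, 43.3, 38.8 and 51.3 CPM and 24.6, 36.2 and 35.0 CPM at 24 h, with the opposite order (difference −0.88 ± 0.20 log2). The matrix-associated gene Itih5 was at 137, 130.4, 137 and 121 CPM and 178, 138, 169 and 172 CPM at 6 h, and at 184, 191, 184 and 197 CPM and 117, 172 and 174 CPM at 24 h (difference −0.61 ± 0.15 log2). The 24 h T3 replicate 1 was the lowest of the 24 h libraries for Kndc1 and Itih5. The 5 calls were lost in 10 to 18 of the 26 refits, and their adjusted p-values in edgeR's quasi-likelihood test ran from 0.0328 to 0.0496.

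The T3 effect at 6 h with CHX comes from 8 libraries that enter none of the 4 group means of the comparison of times, although they share its estimate of the spread. Without them 62 genes were called in place of 135. Over all genes 1.29% were called for T3 with CHX, 1.16% higher and 0.131% lower. Of the 69 late genes with a higher T3 effect at 24 h, 4 were higher with T3 under CHX and 1 was lower, and the median effect of the 69 under CHX was 0.05 log2. Fndc5, the precursor of irisin, had a T3 effect of 0.65 ± 0.16 log2 under CHX, 0.43 ± 0.18 at 6 h without it and 1.66 ± 0.17 at 24 h. Tph2, the neuronal tryptophan hydroxylase, was low throughout (at most 3.04 CPM as a group mean), with 1.05 ± 0.21 log2 under CHX and 1.70 ± 0.22 at 24 h. Nck2, an adaptor protein gene, and Timm8a1, a mitochondrial import gene, had 0.37 ± 0.05 and 0.73 ± 0.14 log2 under CHX, and 41.0% of the words of Timm8a1 occur in another annotated gene. Elobl was lower with T3 under CHX, with a T3 effect of −0.66 ± 0.17 log2, while it was 0.53 ± 0.18 at 6 h without CHX (not called) and 1.59 ± 0.18 at 24 h. With CHX replicate 4 and 24 h T3 replicate 1 left out the CHX effect of Elobl was −0.39 (adjusted p = 0.0589) and that of Fndc5 0.50 (adjusted p = 0.0778), so both calls were lost. In edgeR's test 0 of the 30 late genes with a lower T3 effect were called under CHX, where their median was −0.04 log2. At an unadjusted p under 0.05 there were 5, with limma voom 2 were called and with DESeq2 0.

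Among the 11 growing genes 4 were also higher with T3 under CHX, and their median under CHX was 0.29 log2. Angptl2 had 1.13 ± 0.11 log2 under CHX (adjusted p = 1.50e-07), Srd5a1 0.78 ± 0.11, Daam2 0.38 ± 0.08 and Tspan9 0.33 ± 0.06. Among the 15 fading genes raised at 6 h, 3 were raised under CHX as well, and the median was 0.09 log2. Hr had 2.85 ± 0.07 log2 (adjusted p = 8.71e-19), the zinc-finger gene Bcl11a 0.66 ± 0.09 and Klf10 0.40 ± 0.05. Klf10 was far higher in both CHX groups, at 281 CPM without and 369.7 CPM with T3, than in any group without CHX. March4 and Abhd14b, whose effect changed sign, had −0.09 ± 0.12 and −0.11 ± 0.08 log2 under CHX and were not called there. A p that misses the threshold under CHX does not show that T3 had no effect there. The CHX libraries with T3 were on lane 6, and those without T3 on lane 5 apart from replicate 4, so lane and T3 overlap in this comparison. Summed oligodendrocyte lineage markers were 569 to 659 CPM in the CHX group and 545 to 576 CPM in the CHX and T3 group.

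**Figure D4:**
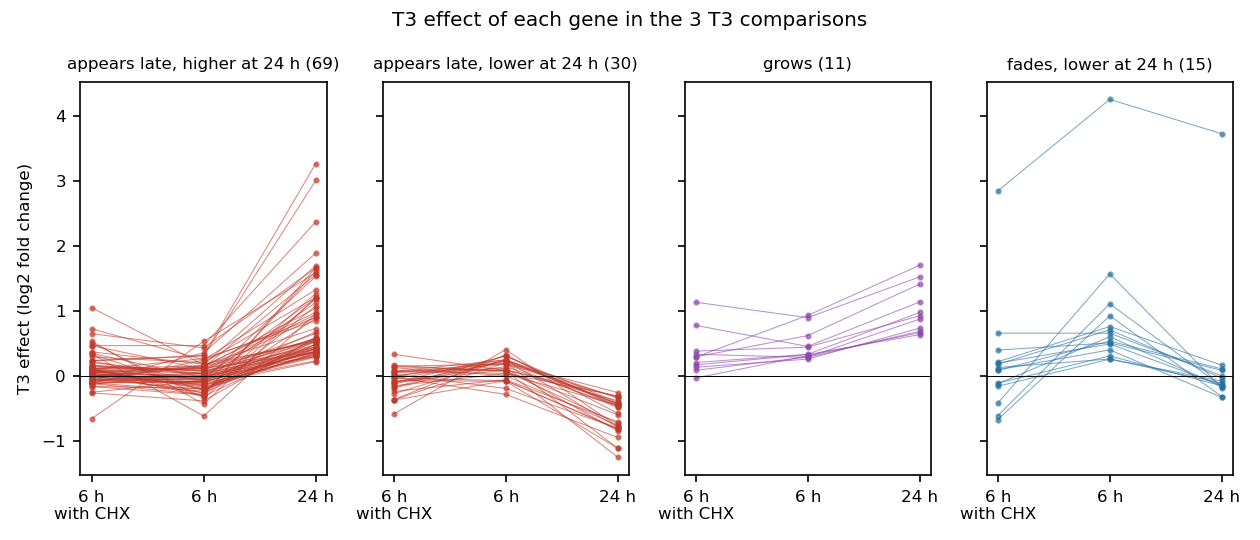
T3 effect of each called gene as log2 fold change at 6 h with CHX, at 6 h and at 24 h, 1 line per gene, for 4 patterns. The late genes scatter around 0 in the first 2 positions, Hr is the top line of the fading genes, and most growing genes lie above 0 in all 3.

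Gene lists are described by their counts and medians, beside the median difference of −0.01 log2 over all 16087 genes. Of all these genes 2510 had an unadjusted p under 0.05 in edgeR's test, DESeq2 called 356 and limma voom 840. The difference was positive in 7865 of the 16087 genes. Oxidative phosphorylation genes, which encode the respiratory chain and ATP synthase, had a positive difference in 52 of 52, with a median of 0.44 log2 and T3 medians of −0.13 at 6 h and 0.32 at 24 h. Of these 52 the ATP synthase subunit gene Atp5b alone was called, at 1569.9 ± 113 and 1413 ± 123 CPM at 6 h (SD, n = 4), 1112 ± 81.1 CPM in 24 h controls (SD, n = 4) and 1392 ± 181 CPM with T3 (SD, n = 3). The call of Atp5b was lost in 15 of the 26 refits. The list median was 0.21 log2 with 24 h T3 replicate 1 and CHX replicate 4 left out, and no member was then called. For cytosolic ribosomal protein genes the median was 0.28 log2 with 0 of 57 called in edgeR's test, DESeq2 and limma voom (5 had an unadjusted p under 0.05), and 0.01 without the same 2 libraries. With a trend on gene length and GC content removed, 18 of the 52 respiratory genes were called higher, and the median was 0.32 log2. Without that removal, 45 of the 52 had an unadjusted p under 0.05 in edgeR's test, DESeq2 called 12 and limma voom 18.

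Among 26 thyroid hormone-responsive genes the median T3 effect was 0.26 log2 at 6 h and 0.49 at 24 h, and the difference had a median of 0.02. The called members were Aldh1a1, Flywch2 and Itga7 higher at 24 h and Hr lower. These are 3 and 1 of the 26, beside 0.541% and 0.298% of all genes. DESeq2 and limma voom each called 4 of the 26. Among 22 genes of thyroid hormone handling only Slco1a4, an organic anion transporter that can carry thyroid hormone, was called in edgeR's test. It was at 30.3 ± 2.69 and 36.4 ± 3.06 CPM at 6 h, 46.4 ± 2.71 CPM in 24 h controls (each SD, n = 4) and 83.4 ± 11.2 CPM with T3 (SD, n = 3), a difference of 0.58 ± 0.12 log2 (adjusted p = 0.0129). The deiodinase gene Dio3, whose enzyme degrades T3, was at 0.116 to 0.186 CPM in 6 h controls, 1.46 to 2.05 CPM with 6 h of T3, 0.126 to 0.457 CPM in 24 h controls and 10.2 to 10.6 CPM with 24 h of T3. Its difference of 1.5 ± 0.76 log2 did not pass (adjusted p = 0.342), and its control libraries held few reads. Dio2, the deiodinase that makes T3, and the receptor gene Thrb had differences of 0.10 ± 0.14 and −0.07 ± 0.18 log2 that did not pass either (adjusted p = 0.751 and 0.87).

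Reactive astrocyte genes had a median difference of −0.24 log2, with Ptx3 and Serping1 called among 32. The Notch list (24 genes, median −0.02 log2), the BMP and Id list (26, −0.02), the JAK-STAT and SOCS list (23, −0.09), the MAP kinase feedback list (21, −0.10), the circadian clock (20, 0.06), cell cycle (40, −0.03), cholesterol synthesis (25, −0.02), ATF4 and amino acid stress (23, −0.07) and interferon response (27, 0.01) had no called member in edgeR's test. At an unadjusted p under 0.05 these 9 lists held 1 to 8 members, and DESeq2 called 0 or 1 and limma voom 0 to 3 in each. Fatty acid synthesis (19, −0.03) had Elovl5, and axon guidance (42, −0.04) had the netrin receptor gene Unc5b, at 0.79 ± 0.16 log2. Markers of other cells had 0 called members for microglia (18 genes, median −0.42 log2), the oligodendrocyte lineage (13, −0.63) and neurons (13, −0.68) in edgeR's test, while 5, 5 and 7 members had an unadjusted p under 0.05. DESeq2 called 1, 0 and 2 members of these lists and limma voom 1, 0 and 6. Beside all these list counts, 2510 of all 16087 genes had an unadjusted p under 0.05, DESeq2 called 356 and limma voom 840. Without 24 h controls 2 and 4 these medians were −0.03, 0.10 and −0.31 log2. Vascular and meningeal markers (13, −0.13) had Acta2, smooth muscle actin, at 1737 ± 249.9 CPM in 24 h controls (SD, n = 4) and 2333 ± 375 CPM with T3 (SD, n = 3). Summed microglia markers ran from 186 to 302 CPM in 24 h controls and 194 to 220 CPM with 24 h of T3, and from 168 to 207 CPM and 198 to 215 CPM in the 6 h control and T3 groups. Summed vascular and meningeal markers were 7176 to 7822 CPM in 6 h controls and 5603 to 7292 CPM with 6 h of T3. At 24 h they were 4497 to 5461 CPM in the controls, lowest in controls 2 and 4, and 4716 to 6999 CPM with T3, highest in replicate 1. The T3 effect on Acta2 at 24 h was 0.43 ± 0.10 log2, and 0.26 without controls 2 and 4. Its 24 h groups overlapped, with control 3 at 2054 CPM and T3 replicate 3 at 1996 CPM, and its call was lost in 13 of the 26 refits. Summed neuron markers were 574 to 651 CPM and 492 to 616 CPM at 24 h, and 553 to 600 CPM and 589 to 664 CPM at 6 h. The part of these cells in the called genes was not tested.

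**Figure D5:**
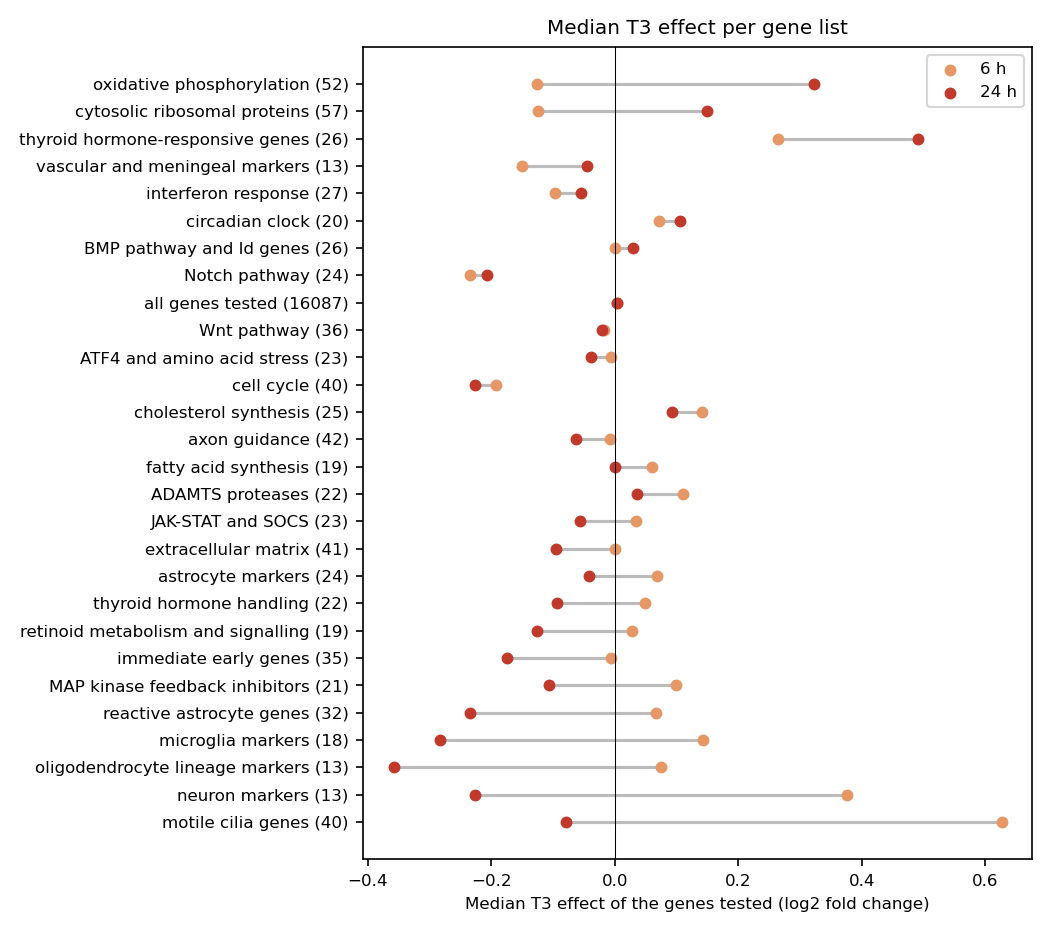
Median T3 effect at 6 h and at 24 h (log2 fold change) of each gene list, joined by a line, with the number of genes tested in parentheses. The widest gaps are those of motile cilia genes, at 0.63 and −0.08, and neuron markers, at 0.38 and −0.23, both toward lower values, and oxidative phosphorylation genes move the other way, from −0.13 to 0.32.

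The kit does not mark strand, so reads of a gene and of a partner on the other strand cannot be told apart. This concerns Acsl6, Armh1, Bcl11a, Casq1, Itga7, Nid1, Rgs6, Slc25a33, Slc29a1, Slc43a2, Vcam1 and Wdr66, besides those named above.

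The threshold lies in a continuous range. The 5 genes just inside it were Itih5, Itga7, Casq1, Lynx1 and Hspa5, all at an adjusted p of 0.0496 in edgeR's test. The 5 just outside were Myt1 and Map3k19 (0.0508), Idh3a (0.0508), 4921536K21Rik (0.0509) and Crispld2 (0.0530). Myt1, a zinc-finger gene of neural and oligodendrocyte precursors, had a difference of −1.09 ± 0.27 log2, and its T3 effect was 0.74 ± 0.19 at 6 h and −0.35 ± 0.19 at 24 h.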

How the data were processed

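RNA of 23 libraries was sequenced as single 50 nt reads from a kit that does not mark strand, per the labels' protocols. The deposited files hold raw counts of reads per gene for 38293 Ensembl gene identifiers, and the authors normalized nothing in them. The submitters' processing notes name bcl2fastq, FastQC, TopHat, Bowtie, HTSeq, edgeR and GRCm38, with no versions. The sources used here do not state the HTSeq settings or the release of the annotation. The 5 lines that name no gene were left out of library sizes, and reads that aligned to several places made up 30.7% to 42.3% of a library's lines.

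Counts were fitted with edgeR 4.0.16 (R 4.3.3) after filterByExpr (minimum count 10) and TMM scaling, with 1 mean per group over all 23 libraries and 17 residual degrees of freedom. Quasi-likelihood F tests gave p-values, adjusted over 16087 genes by Benjamini-Hochberg. The ± beside a log2 value is its standard error, and SDs are of CPM over libraries. The biological coefficient of variation was 8.57%. An effect called at 24 h and not at 6 h appears late. One called at both times with the same sign and larger at 24 h grows. One called at 6 h fades if it is smaller with the same sign at 24 h, or not called there with any sign. The members follow from the rule. The gene lists and tests were chosen with earlier results of these data known. Named genes are the 8 protein-coding genes with the largest difference in each pattern and direction with a group mean of at least 1 CPM (library values for the first 3), list members that were called, the 5 genes on each side of the threshold, and Hr, Klf9, Dio3, Dio2 and Thrb. Outside this rule, and chosen after their values were seen, are Flnc, Htra1, Kdelr3, Nt5e, Papss2, Pla2g5, Rgs6, Scpep1, Sept4 and Smoc1 (called in all refits), Elobl, Fndc5, Nck2, Timm8a1, Tph2 and Tspan9 (called under CHX), and Cav1, Cox7a1, Islr, Rab31, Thy1, Vcam1 and Vegfa. Symbols were matched to GENCODE M21 (36429 of 38293). Refits used DESeq2 1.42.0, limma 3.58.1 and the settings listed in the closing part. The scripts were tested on simulated counts. No 2 libraries of a group held identical values.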

Additional observations from a re-analysis of the deposited data

Results flagged for a closer look

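The 135 called genes are by construction genes whose T3 effect differed between 24 h and 6 h by a test of the difference itself. March4, with a difference of −1.34 log2, and Abhd14b, with 0.60 log2, were called at both times with opposite signs. Among 81 groups of 4 libraries of the genes printed library by library, 5 held 1 library far from the other 3, and chance flags about 1 in 20 groups. These were 6 h control replicate 2 for Adamts16 at 0.835 CPM and for St18 at 1.25 CPM, 24 h control replicate 2 for Klf9 at 21 CPM, and for Minar2 6 h T3 replicate 4 at 1.51 CPM and 24 h control replicate 3 at 9.68 CPM.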

How the results depend on the processing

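All 135 called genes kept the sign of their difference in every setting tried. These settings reuse the libraries that chose the genes, so nothing is read from the kept signs. The count of called genes was 356 with DESeq2 (205 higher at 24 h, 151 lower), 521 with lane as a covariate (313 and 208), 357 with a length and GC trend removed (238 and 119) and 840 with limma voom and library weights (438 and 402, 52.1% higher against 64.4% in the reported test). It was 62 in the 15 libraries without CHX (35 and 27), 32 without 24 h control replicates 2 and 4 (22 and 10), 38 at an adjusted p under 0.01 (27 and 11) and 276 at 0.10 (165 and 111). Without a filter on low counts 168 genes were called, 76 of them lower. With 24 h T3 replicate 1 and CHX replicate 4 left out, 153 were called, of which 73 were lower and 52.3% higher. Leaving out 1 library at a time gave 69 to 350 called genes, 41 to 251 higher and 25 to 109 lower. The lowest count was without 24 h control 2 and the highest without 24 h T3 replicate 3. The refit with lane as a covariate could not adjust the comparison for lane. As 24 h T3 replicate 3 was the only library on its lane, the covariate took it out of the difference. The other libraries of the comparison shared a lane within each time, so their lane term cancelled in the difference. Same-numbered libraries did not deviate together (correlations −0.096 to 0.096, and not every library correlated best with its own number). With a replicate block by number 95 genes were called, 83 of them among the 135, and with a replicate block by letter 121 and 99. Of the 135 genes, 107 lost the call in at least 1 refit and 34 in more than 13 of the 26. The causes of these changes were not tested. With 3 or 4 libraries a group and lane tied to time, small differences and genes of few counts are the least certain, and the labels do not say which libraries come from separate cultures.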
